A study of Mus musculus with 16 samples.

Results

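Rapamycin was given to brain microvascular endothelial cells labelled wild-type for *Ccm3*, and the comparison described here sets the 2 rapamycin-treated libraries with that label (WT+R) against the 3 untreated ones (WT), 5 of the 16 RNA-seq libraries of the series. The libraries were chosen by their labels alone. Mouse brain microvascular endothelial cells (mBMEC) were cultured from the brains of 8 to 10-week-old Cdh5 (PAC)-CreERT2/Pdcd10 fl/fl mice, in which Cre is driven by the endothelial *Cdh5* promoter and is active only after 4-hydroxytamoxifen (4-OHT). Every library of the series, the wild-type ones included, came from mice with this floxed allele and this transgene, and from cultures that were started from pooled brains, selected with puromycin and used at passage 2. WT cells were labelled *Ccm3* wild-type and received no drug, and WT+R cells were labelled *Ccm3* wild-type and received 100 nM rapamycin for 24 h. The cells set beside them below were WT+P (wild-type, 10 µM propranolol for 24 h, 2 libraries), KO (*Ccm3* deleted, no drug, 3 libraries) and KO+R (*Ccm3* deleted, 100 nM rapamycin for 24 h, 3 libraries). In the study KO cells were made with 4-OHT and wild-type cells were left without it. Deletion of *Ccm3* and exposure to 4-OHT therefore cannot be told apart where the genotypes are compared. The control cells are labelled untreated, so the drug and its solvent cannot be told apart.

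Rapamycin binds the small protein FKBP12, and the pair inhibits mTORC1, the kinase complex that couples growth factors and amino acids to protein, lipid and nucleotide synthesis and that holds back autophagy. Prolonged exposure can also lower mTORC2, the complex that phosphorylates AKT. FKBP12 itself binds type I receptors of the TGF-beta and BMP family. In endothelial cells BMP9 and BMP10 signal through ALK1 and endoglin to SMAD1 and SMAD5, which switch on the ID genes and the inhibitory SMADs, while loss of a CCM gene raises the transcription factors KLF2 and KLF4.

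The 5 libraries held 22.21 to 26.2 M counts (M stands for 1000000), within the 18.83 to 26.2 M of the 16. *Pdcd10*, the gene that encodes CCM3 (chr3:75423789-75464748 in GRCm39), was at 11.5, 31.2 and 47.0 counts per 1000000 counts (CPM) in the libraries labelled WT replicates 1, 2 and 3 and at 52.0 and 27.7 CPM in WT+R replicates 1 and 2. The level in the library labelled WT replicate 1 went against its label. It lay among the 9 libraries of *Ccm3*-deleted cells, which ran from 7.83 to 16.7 CPM, while the other 6 libraries labelled wild-type, those with propranolol included, ran from 27.7 to 60.8 CPM. This library is part of the WT baseline of every value of WT+R against WT below. Counts without it are given for the whole comparison and for most groups of genes. They are not given for the autophagy, lysosome, cell cycle and death genes, the largest falls, the genotype differences or the closing observations. WT and WT+R overlapped (log2 fold change 0.51 ± 0.46 (SE), adjusted p = 0.58). The 24 endothelial identity genes summed to between 17983.5 and 22338.5 CPM in WT and to 18268.0 and 18407.4 CPM in WT+R, with none under 1 CPM in all 5 libraries. The 14 mural cell markers summed to between 109.1 and 847.4 CPM in WT and to 1467.9 and 2493.5 CPM in WT+R. Most of this was *Acta2* and *Tagln*. Markers of fibroblasts, astrocytes, oligodendrocytes and neurons were present at lower sums. They came to between 21.3 and 100.3 CPM in WT and 9.31 and 44.8 CPM in WT+R for 12 fibroblast markers (with *Col1a1* at up to 52.9 CPM), and to 32.8 to 78.2 CPM and 39.7 to 69.5 CPM for 10 astrocyte markers (mostly *Gja1*). For 10 oligodendrocyte lineage markers they came to 40.9 to 53.1 CPM and 32.4 to 33 CPM (mostly *Cnp*), and for 10 neuron markers to 21.2 to 73.2 CPM and 37.5 to 96.1 CPM (mostly *Stmn2*). Of the defining markers, *Cx3cr1* and *P2ry12* (microglia), *Sox10* (oligodendrocytes), *Snap25* (neurons), *Lum* and *Dpt* (fibroblasts) and *Higd1b* and *Vtn* (pericytes) were at 0 in all 5 libraries. In bulk RNA, fewer cells of a type and less RNA per cell cannot be told apart.

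Rapamycin changed 677 of the 14838 genes tested, which is 4.56%, with 323 higher (2.18%) and 354 lower (2.39%) in WT+R. These shares are the background for the counts of list members that rose or fell in WT+R below. A gene was called at an adjusted p under 0.05 and a fold change above 1.5, from edgeR's quasi-likelihood test with Benjamini-Hochberg adjustment over all genes, with the replicate number as a block, and every adjusted p below is from this fit unless another is named. The median called rise was 2.12-fold and the median called fall 2.32-fold, and the median log2 fold change over all genes was -0.01. In 616 of the 677 genes the WT and WT+R libraries did not overlap, against 28.6% of all genes tested. Without the block 207 genes were called, of which 205 were among the 677, and all 677 kept their direction. The count also rested on single libraries. It was 405 without the library labelled WT replicate 1, 443 without WT replicate 2, 648 without WT replicate 3, 101 without WT+R replicate 1 and 406 without WT+R replicate 2. The libraries were not stranded, and 184 of the 677 genes share 10% or more of their exonic bases with another gene, so that their reads could belong to either.

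**Figure D1:**
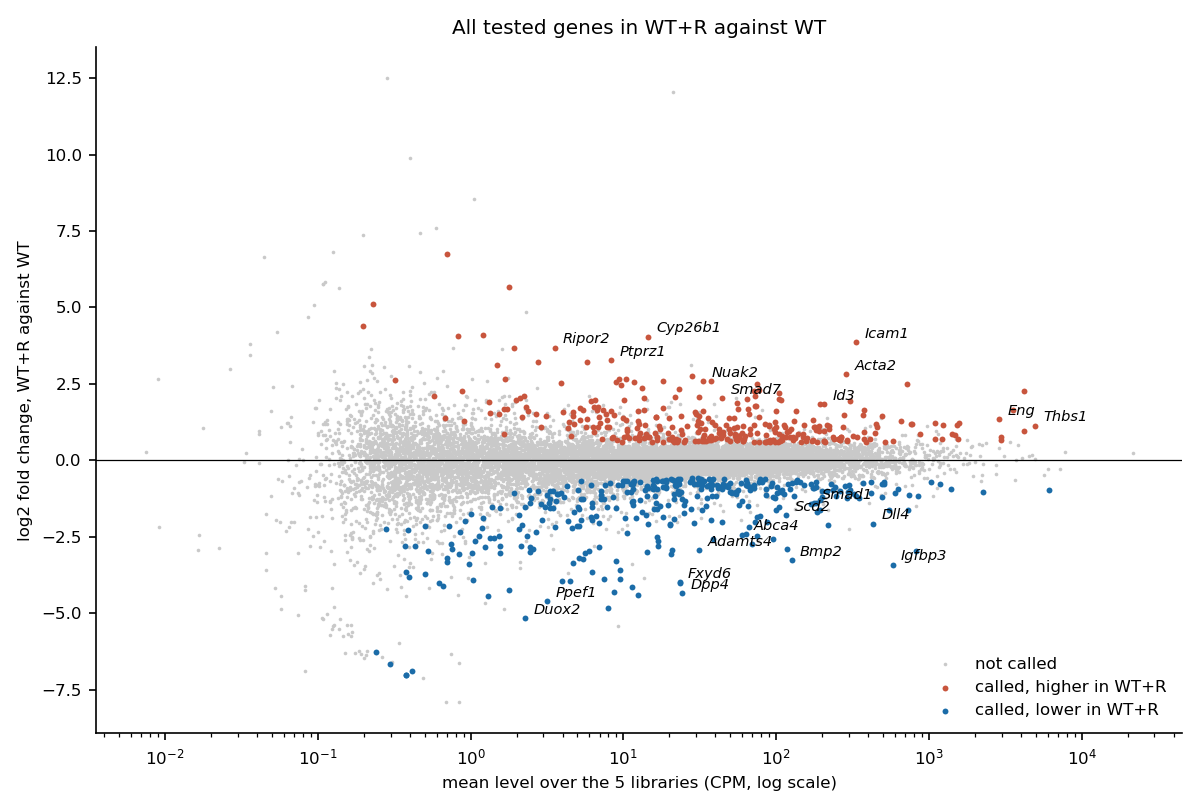
Each point is 1 of the 14838 tested genes, with its mean level over the 3 WT and 2 WT+R libraries in CPM on a log scale (x axis) and its log2 fold change in WT+R against WT (y axis). Genes called higher are red and genes called lower are blue. *Icam1* and *Acta2* stood out among well-expressed genes that rose, and *Igfbp3* and *Bmp2* among those that fell.

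BMP-responsive genes rose in part. Of 17 tested members of the list of ID genes and inhibitory SMADs, 7 rose and 0 fell, against 2.18% and 2.39% of all genes. The list also holds BMP antagonists, *Hey1* and *Hey2*. Its median log2 fold change was 0.77, with 10 members positive and 7 negative. The negative members were *Bambi* (-1.56), *Id4*, *Hey2* (-0.62), *Grem1* (-0.56), *Bmper* (-0.45), *Hey1* (-0.11) and *Chrd* (-0.06). DESeq2 with the block called 8 higher and 1 lower. *Smad7*, which blocks type I receptors, was at 18.8, 21.3 and 19.5 CPM in WT and at 78.3 and 84.3 CPM in WT+R (log2 fold change 2.04 ± 0.11 (SE), adjusted p = 8.75e-06). *Smad6*, an inhibitor of BMP receptor signalling (chr9:63860341-63929793), was at 54.4, 52.3 and 41.2 CPM in WT and at 162.1 and 228.2 CPM in WT+R (1.97 ± 0.28, adjusted p = 0.00311). *Id3*, a dominant-negative partner of basic helix-loop-helix factors (chr4:135870808-135873066), was at 96.7, 94.9 and 103.7 CPM in WT and at 396.3 and 339.0 CPM in WT+R (1.83 ± 0.17, adjusted p = 0.000325). In these 3 genes the WT libraries lay close together and both WT+R libraries stood well above them. *Id1* (log2 fold change 1.17, adjusted p = 0.0366), *Id2* (1.75, adjusted p = 0.00931), *Atoh8*, a BMP-induced transcription factor (2.77, adjusted p = 0.0128), and *Smurf2*, the ubiquitin ligase that SMAD7 recruits (0.77, adjusted p = 0.00379), rose as well. *Atoh8* differed as much between cultures as between groups, at 21.8, 1.91 and 10.5 CPM in WT and 78.7 and 28.4 CPM in WT+R, and without the block its adjusted p was 0.377, as it was 0.0614 for *Id1*. *Id4* was at or under 1.38 CPM in all 5 libraries (-0.75, adjusted p = 0.58).

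BMP ligands and the receptors and signal SMADs of the BMP and TGF-beta family moved both ways. Of 21 tested members, which include activin and TGF-beta receptors, 5 were higher and 2 lower, with a median log2 fold change of 0.13. *Eng*, the endoglin co-receptor, rose from 1770.4, 1851.5 and 1928.6 CPM in WT to 4678.2 and 4216.7 CPM in WT+R (log2 fold change 1.35 ± 0.19, adjusted p = 0.00295). The BMP receptor gene *Bmpr2* (0.97, adjusted p = 0.00704) and the ligand gene *Bmp6* (1.47, adjusted p = 0.0153) rose too. So did the activin receptor gene *Acvr1b* (1.13, adjusted p = 0.00469) and the TGF-beta receptor gene *Tgfbr1* (0.80, adjusted p = 0.0206). *Bmp2*, a ligand of BMP type I receptors (chr2:133394079-133404816), fell from 200.9, 109.8 and 277.9 CPM to 26.1 and 17.8 CPM (log2 fold change -3.25 ± 0.5, adjusted p = 0.00453). *Smad1*, a signal transducer of BMP receptors, fell from 288.2, 182.6 and 232.1 CPM to 107.4 and 69.9 CPM (-1.40 ± 0.1, adjusted p = 0.000163, and 0.0523 without the block). The other receptor genes of the list were not called. Of these *Bmpr1b* (-1.53), *Tgfbr2* (-1.15), *Acvrl1*, which encodes ALK1 (-0.30), *Acvr2a* (-0.12) and *Tgfbr3* (-0.06) were negative. *Bmpr1a* (0.39), *Acvr2b* (0.38) and *Acvr1* (0.13) were positive. The rise in some receptors and inhibitors thus stood beside a called fall in 1 ligand and 1 transducer. Of the 14 called genes of this list and the list of ID genes and inhibitory SMADs, 9 were called without the block. Without WT replicates 1, 2 and 3 they numbered 13, 10 and 13. Without WT+R replicate 1, 5 were called, with adjusted p between 0.059 and 0.228 for the others, and without WT+R replicate 2, 11. *Id1*, *Id2*, *Id3*, *Smurf2* and *Eng* share 13.7%, 36.2%, 11.8%, 11.0% and 11.0% of their exonic bases with another gene.

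**Figure D2:**
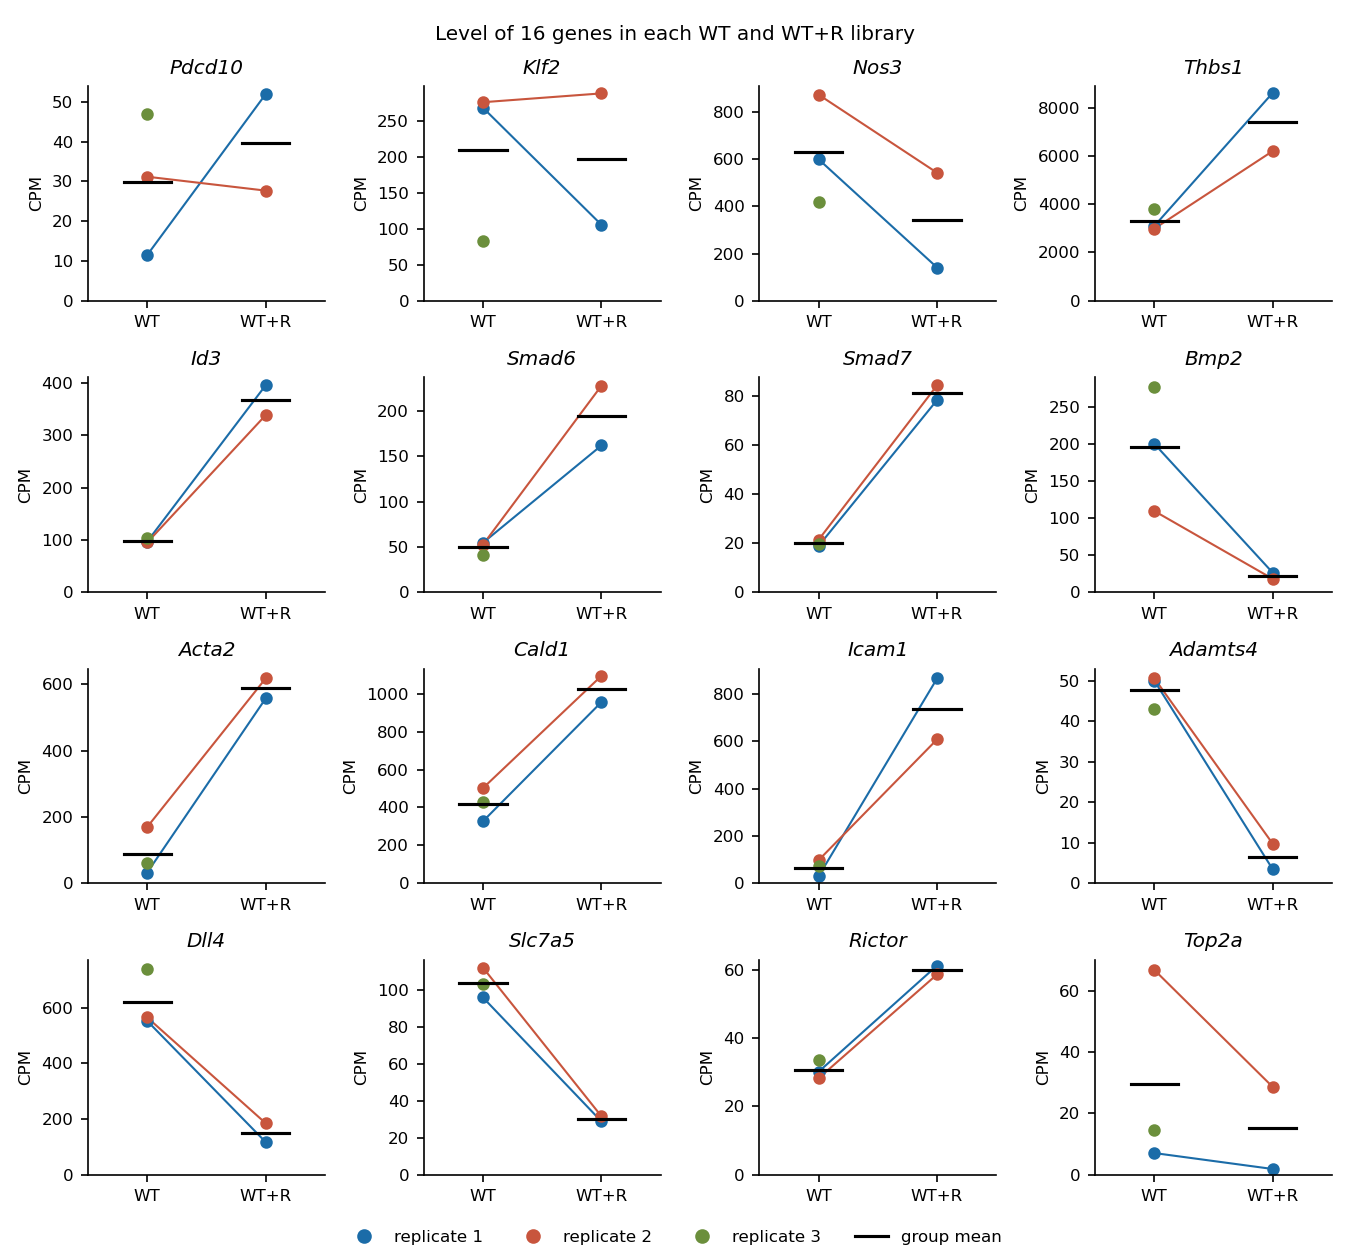
Level in CPM (y axis, from 0) of 16 genes in each WT and WT+R library (x axis), with points coloured by replicate number, lines joining same-numbered libraries and black bars at the group means. *Smad7*, *Id3* and *Rictor* rose and *Slc7a5* fell by similar amounts in both cultures, while *Pdcd10* and *Klf2* did not move the same way in both.

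Genes of the actin cytoskeleton rose. Of 42 tested actin cytoskeleton genes and SRF targets, a list chosen after its values were seen, 18 rose and 0 fell. Over all genes 2.18% rose and 2.39% fell, and the median log2 fold change of the list was 0.68. The 18 became 5 without the block, 6, 13 and 15 without WT replicates 1, 2 and 3, 2 without WT+R replicate 1 and 12 without WT+R replicate 2. *Acta2*, smooth muscle alpha-actin (chr19:34217737-34232990), was at 32.5, 169.7 and 61.8 CPM in WT and at 557.3 and 617.7 CPM in WT+R (log2 fold change 2.82 ± 0.59, adjusted p = 0.0176). *Tagln*, transgelin, was at 56.0, 659.2 and 149.4 CPM in WT and at 899.1 and 1858.4 CPM in WT+R (2.50 ± 0.61, adjusted p = 0.035, and 0.34 without the block). *Cald1*, the actin regulator caldesmon, was at 327.1, 501.9 and 426.8 CPM in WT and at 955.9 and 1094.3 CPM in WT+R (1.28 ± 0.14, adjusted p = 0.000741). WT replicate 2 held more *Acta2* and *Tagln* than the other WT libraries, and in all 3 genes both WT+R libraries were above all WT libraries. Further members that rose were the myosin light chain gene *Myl9* (2.29), the filament nucleator gene *Lmod1* (2.55), the focal adhesion gene *Vcl* (1.20), *Cnn2* (0.88), *Tpm1* (0.83), *Actn1* (0.85), *Flna* (0.70) and *Myh9* (0.67), all log2 fold changes. *Srf*, the transcription factor that drives many of them, had a log2 fold change of 0.38 (adjusted p = 0.308).

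A CArG box, the site that SRF binds, was looked for on both strands in the 300 bases before the start of each gene's most abundant transcript. It stood in 4 of the 18 promoters of called genes of this list (*Cald1*, *Cnn2*, *Tagln* and *Vcl*), in 3 of the 24 promoters of its other genes and in 1.52% of the 14837 promoters read. The list was chosen to hold SRF targets, so a share above that of all promoters was built into it. Whether SRF took part was not tested. The 2 promoters below are shown because they carry the box next to genes described here. They are read 5′ to 3′ on the strand of the gene from GRCm39, with the box in capitals. It ends 55 bases before the start of *Tagln* (chr9:45847405-45847704, minus strand) and 242 bases before that of *Cald1* (chr6:34575135-34575434, plus strand). The *Tagln* window lies in the predicted gene *Gm48529* of the other strand, outside its exons, and the *Cald1* window overlaps an exon of the predicted gene *Gm66862*.
Tagln promoter: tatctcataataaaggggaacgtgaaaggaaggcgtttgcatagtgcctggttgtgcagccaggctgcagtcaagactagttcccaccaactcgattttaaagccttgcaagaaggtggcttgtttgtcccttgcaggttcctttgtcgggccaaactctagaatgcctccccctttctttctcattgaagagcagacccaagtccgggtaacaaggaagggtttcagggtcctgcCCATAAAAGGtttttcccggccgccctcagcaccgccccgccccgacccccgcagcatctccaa
Cald1 promoter: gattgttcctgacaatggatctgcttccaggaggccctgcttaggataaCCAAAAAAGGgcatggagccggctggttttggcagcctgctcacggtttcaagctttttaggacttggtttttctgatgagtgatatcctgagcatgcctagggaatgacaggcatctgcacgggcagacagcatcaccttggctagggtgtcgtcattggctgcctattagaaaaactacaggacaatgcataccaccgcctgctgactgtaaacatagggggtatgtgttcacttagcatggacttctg

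*Acta2* and *Tagln* also belong to the mural cell markers, of which 2 of 9 tested rose and 0 fell. Of the 9, 5 were positive and 4 negative, with 3 higher and 2 lower at an unadjusted p under 0.05. *Anpep*, not called, was at 12.4, 8.37 and 6.19 CPM in WT and at 3.58 and 3.18 CPM in WT+R. *Notch3*, also not called, was at 1.43, 4.11 and 2.21 CPM in WT and at 0.448 and 1.85 CPM in WT+R. The 14 listed markers summed to between 109.1 and 847.4 CPM in WT and to 1467.9 and 2493.5 CPM in WT+R, and *Acta2* and *Tagln* made up most of each sum. The pericyte markers *Rgs5*, *Kcnj8*, *Abcc9* and *Cox4i2* were under 1 CPM in all 5 libraries. *Pdgfrb* was at 2.81, 1.72 and 4.84 CPM in WT and at 4.70 and 3.05 CPM in WT+R (log2 fold change 0.76, adjusted p = 0.277).

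Of 20 TGF-beta and mesenchymal transition genes, 4 rose and 1 fell, against 2.18% and 2.39% of all genes, and the median log2 fold change was 0.05. *Skil*, a TGF-beta-induced repressor of SMADs, rose from 31.4, 40.6 and 43.4 CPM to 102.0 and 113.0 CPM (1.52 ± 0.13, adjusted p = 0.000325). *Vim*, the mesenchymal filament vimentin, went the other way and fell from 8438.3, 6766.5 and 7578.3 CPM to 3507.3 and 4396.0 CPM (-0.96 ± 0.19, adjusted p = 0.0143). Among the 20 YAP and TAZ targets 5 rose and 0 fell, against the same shares of all genes, with a median of 0.53. They were the matricellular genes *Ccn1* (1.21) and *Ccn2* (1.64), the Hippo pathway genes *Lats2* (0.78) and *Ajuba* (0.62), and *F3*, tissue factor (2.66), which was at 0.138, 9.86 and 2.95 CPM in WT and 7.70 and 31.7 CPM in WT+R. Of the 18 called genes of the actin, TGF-beta and YAP lists named here, 8 were called without the block, 10, 14 and 16 without WT replicates 1, 2 and 3, 3 without WT+R replicate 1 (adjusted p 0.0577 to 0.296 for the others) and 13 without WT+R replicate 2. *Tagln*, *Vcl*, *Actn1*, *Ccn1*, *Ccn2*, *F3*, *Lats2* and *Vim* share 66.7%, 24.6%, 17.3%, 23.0%, 36.5%, 20.7%, 30.4% and 12.3% of their exonic bases with another gene.

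Leukocyte adhesion genes rose in part. Of 21 tested members of the adhesion and chemokine list 5 were higher and 0 lower, against 2.18% and 2.39% of all genes. The median log2 fold change was 0.93, with 18 positive and 3 negative, *Ackr3* (-2.63), *Ccl7* (-0.83) and *Selp* (-0.15). DESeq2 with the block called 7 higher and 1 lower. *Icam1*, the ligand of leukocyte beta2 integrins, was at 29.8, 97.6 and 72.7 CPM in WT and at 866.3 and 608.8 CPM in WT+R (log2 fold change 3.87 ± 0.55, adjusted p = 0.00297). *Vcam1*, the ligand of integrin alpha4, was at 135.7, 254.2 and 169.0 CPM in WT and at 757.8 and 578.3 CPM in WT+R (1.66 ± 0.33, adjusted p = 0.0145). Both genes were higher in both WT+R libraries than in any WT library. The chemokine genes *Cxcl12* (1.18, adjusted p = 0.0179) and *Cx3cl1* (1.11, adjusted p = 0.0208) and 2 genes that feed back on NF-kB and cell death signals, *Tnfaip3* (1.44, adjusted p = 0.00443) and *Birc3* (1.17, adjusted p = 0.0144), rose with them. *Sele*, E-selectin, was at 0.414, 2.02 and 0.820 CPM in WT and at 0.850 and 1.5 CPM in WT+R (0.59, adjusted p = 0.586). Without the block 5 of these 6 genes were called, the exception being *Birc3* (adjusted p = 0.086). Without WT+R replicate 1 only *Icam1* was called, the adjusted p of the others being 0.086 to 0.253, and 4 were called without the library labelled WT replicate 1 and 4 without WT replicate 2. *Icam1* and *Cx3cl1* share 10.3% and 10.8% of their exonic bases with another gene.

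The *Icam1* promoter is shown because this gene had the largest rise of the list. An NF-kB motif, in capitals, ends 234 bases before its transcription start (GRCm39, chr9:20926372-20926671, plus strand), and no annotated exon overlaps the window. The motif stood in 2 of the 5 promoters of called members of the list, in 7 of the 16 others and in 4.96% of all promoters read. These shares were 40% of the called members and 43.8% of the others. The list holds genes of NF-kB signalling and its targets, so a share above that of all promoters was built into it. Whether NF-kB took part was not tested.
Icam1 promoter: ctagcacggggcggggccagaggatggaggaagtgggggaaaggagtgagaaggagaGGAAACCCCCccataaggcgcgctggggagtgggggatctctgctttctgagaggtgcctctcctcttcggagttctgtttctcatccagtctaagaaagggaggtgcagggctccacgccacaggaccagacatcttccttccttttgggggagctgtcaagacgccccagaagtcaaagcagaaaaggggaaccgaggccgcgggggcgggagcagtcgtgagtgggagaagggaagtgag

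The genes by which loss of CCM proteins is usually followed did not move as one block. Of 24 tested genes of the CCM complex and the KLF2 and KLF4 axis, 1 rose and 3 fell, with a median log2 fold change of 0.01. DESeq2 with the block called 1 higher and 6 lower. *Klf2* was at 268.9, 276.5 and 82.8 CPM in WT and at 105.8 and 288.8 CPM in WT+R (log2 fold change -0.15 ± 0.47, adjusted p = 0.896). *Klf4* was at 68.5, 105.5 and 28.5 CPM in WT and at 43.8 and 100.5 CPM in WT+R (0.03 ± 0.42, adjusted p = 0.983). Both factors overlapped between the groups, and the signs of their small differences turned when single libraries were left out. *Nos3*, endothelial nitric oxide synthase, was at 600.4, 874.6 and 418.0 CPM in WT and at 140.8 and 543.0 CPM in WT+R (-1.08 ± 0.36, adjusted p = 0.112). By DESeq2 with the block its adjusted p was 0.0239, and without WT replicate 3 edgeR called it lower (-1.33, adjusted p = 0.0311). It shares 32.7% of its exonic bases with another gene.

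Some secreted matrix genes of the same axis did change, while *Adamts5* (log2 fold change -0.94), *Vcan* (-0.83) and *Thbs2* (0.12) were not called. *Thbs1*, the anti-angiogenic thrombospondin 1 (chr2:117941974-117957616), rose from 3094.9, 2986.8 and 3795.8 CPM to 8622.3 and 6206.3 CPM (log2 fold change 1.14 ± 0.18, adjusted p = 0.00507). *Adamts4*, an aggrecan- and versican-cleaving protease (chr1:171077986-171089841), fell from 50.0, 50.6 and 42.9 CPM to 3.45 and 9.75 CPM (-2.93 ± 0.33, adjusted p = 0.00105). *Adamts1* fell from 155.8, 88.2 and 67.3 CPM to 25.5 and 25.6 CPM (-2.00 ± 0.42, adjusted p = 0.018), and *Adamts9* from 35.8, 20.8 and 17.4 CPM to 3.45 and 5.76 CPM (-2.51 ± 0.44, adjusted p = 0.00803). Neither *Thbs1* nor the 3 protease genes overlapped between WT and WT+R, and all 4 were called without the block too. Without WT+R replicate 1 *Adamts4* alone was called (adjusted p 0.0737 to 0.208 for the others), and *Adamts1* was also lost without the library labelled WT replicate 1 (adjusted p = 0.0626) and without WT+R replicate 2 (adjusted p = 0.103). *Thbs1* and *Adamts9* share 11.1% and 12.2% of their exonic bases with another gene.

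Vessel growth genes split. In the list of 29 tested VEGF, angiopoietin, Notch and tip cell genes 4 rose and 4 fell, against 2.18% and 2.39% of all genes. The median log2 fold change was -0.21. *Dll4*, the Notch ligand of arterial and tip cells (chr2:119156170-119166443), fell from 552.7, 565.3 and 741.1 CPM to 116.8 and 184.6 CPM (log2 fold change -2.07 ± 0.35, adjusted p = 0.00652). *Igfbp3*, an insulin-like growth factor binding protein, fell from 1286.3, 378.4 and 1092.7 CPM to 87.3 and 53.7 CPM (-3.41 ± 0.61, adjusted p = 0.00887). *Cxcr4*, the CXCL12 receptor of tip cells, was at 988.7, 381.5 and 778.3 CPM in WT and at 469.2 and 106.6 CPM in WT+R (-1.64 ± 0.22, adjusted p = 0.00241). *Dll4* and *Igfbp3* were below every WT library in both WT+R libraries, whereas for *Cxcr4* WT+R replicate 1 was above WT replicate 2, and without the block its adjusted p was 0.567. *Efnb2*, the arterial ephrin, fell (-0.63, adjusted p = 0.0291), and *Jag1*, another Notch ligand (1.30), *Esm1*, a tip cell proteoglycan (1.62), *Nrp2*, a VEGF-C co-receptor (1.09), and *Nr2f2*, the venous factor COUP-TFII (0.59), rose.

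Of 24 tested endothelial identity genes, 2 rose (*Eng* and *Emcn*, 0.85), 3 fell (*Cd34*, -0.95, *Egfl7*, -0.70, and *Ets1*, -0.85) and the median was -0.36. *Cdh5*, VE-cadherin, was at 4256.0, 3508.4 and 5186.3 CPM in WT and at 2592.1 and 2803.2 CPM in WT+R (log2 fold change -0.63 ± 0.17, adjusted p = 0.054). By DESeq2 with the block its adjusted p was 0.00368, and without WT replicate 2 edgeR called it lower (-0.78, adjusted p = 0.0365). *Ctnnb1*, beta-catenin, was at 1365.9, 1234.2 and 1319.6 CPM in WT and at 1384.8 and 1523.5 CPM in WT+R (0.20 ± 0.18, adjusted p = 0.583). *Pecam1* (-0.43, adjusted p = 0.322) and *Cldn5*, the main tight junction claudin (-0.92, adjusted p = 0.178), did not pass the test, although their 2 groups did not overlap. In the junction list *Ctnnd1*, p120-catenin, rose (0.69) and the connexin gene *Gja4* fell (-4.23, from 1.79, 3.06 and 3.86 CPM to 0.224 and 0 CPM) among 24 tested, and in the matrix list the metalloproteinase genes *Mmp14* (-0.79) and *Mmp15* (-1.88) fell among 35. Of the 16 called genes of the vessel growth, identity, junction and matrix lists named here without *Eng*, 4 were called without the block. Leaving out WT replicate 1, 2 or 3 left 9, 10 and 10 of them, leaving out WT+R replicate 1 left 2 (adjusted p 0.0593 to 0.524 for the others) and leaving out WT+R replicate 2 left 7. The exonic bases shared with another gene were 15.6% in *Dll4*, 10.3% in *Efnb2*, 18.3% in *Nr2f2*, 11.7% in *Ctnnb1*, 37.6% in *Ctnnd1*, 31.8% in *Gja4* and 17.8% in *Egfl7*.

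**Figure D3:**
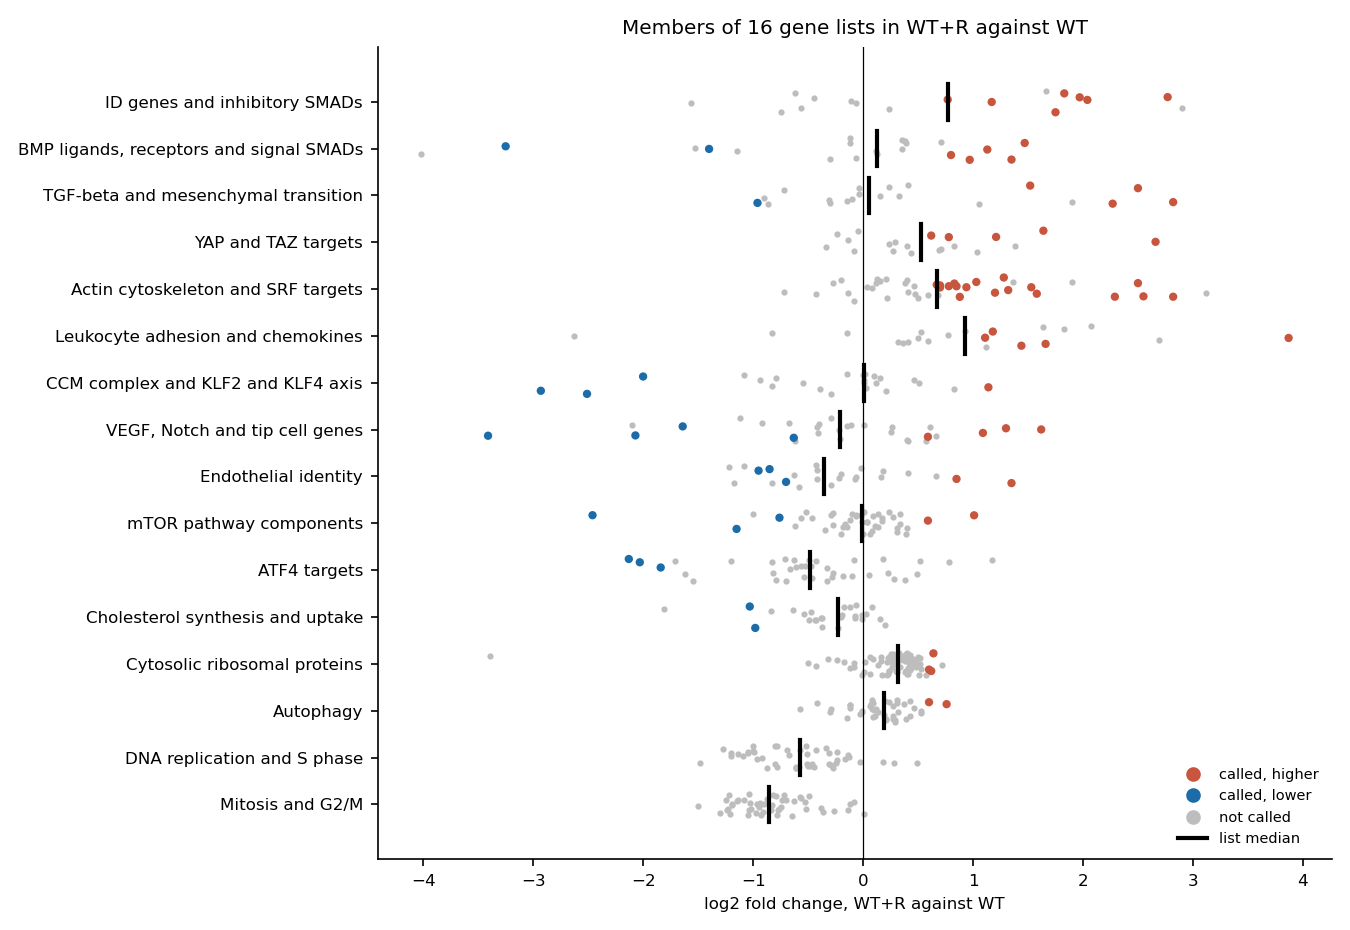
Log2 fold change in WT+R against WT (x axis) of every tested member of 16 gene lists (rows), with called genes in red (higher) or blue (lower), other genes in grey and the list median as a black bar. The list medians ran from -0.85 for mitosis genes to 0.93 for leukocyte adhesion genes, and the actin list was chosen after its values were seen.

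Of 44 components of the mTOR pathway 2 were higher and 3 lower, which is 11.4% called against 4.56% of all genes. The median log2 fold change was 0.00. *Rictor*, the scaffold of mTORC2 (chr15:6737860-6829882), was at 30.1, 28.2 and 33.5 CPM in WT and at 61.2 and 58.6 CPM in WT+R (log2 fold change 1.01 ± 0.17, adjusted p = 0.00638). *Ddit4*, the stress-induced mTORC1 inhibitor REDD1, fell from 65.0, 34.1 and 47.2 CPM to 24.3 and 19.3 CPM (-1.15 ± 0.16, adjusted p = 0.00249). *Deptor*, an inhibitor bound to both mTOR complexes, fell from 3.77, 2.73 and 3.98 CPM to 0.492 and 0.730 CPM (-2.46 ± 0.62, adjusted p = 0.0412). In each of these the 2 WT+R libraries lay outside the WT range. *Castor2*, an arginine sensor, fell by 0.76 on the log2 scale and *Eif4b*, a translation factor phosphorylated by S6 kinase, rose (0.59). Of mTORC2-binding proteins outside the list, *Prr5* fell from 68.7, 42.4 and 47.3 CPM to 17.8 and 10.7 CPM (-1.94, adjusted p = 0.00175) and its paralogue *Prr5l* rose from 30.5, 40.6 and 38.3 CPM to 76.0 and 65.1 CPM (0.91, adjusted p = 0.0113), both chosen after their values were seen. *Fkbp1a*, which encodes FKBP12, had a log2 fold change of 0.27 (adjusted p = 0.585) and *Mtor* itself of 0.14 (adjusted p = 0.508). *Eif4b* shares 30.4% of its exonic bases with another gene.

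In the list of 25 insulin feedback and FOXO targets 3 rose and 2 fell (median 0.25). *Irs2*, the insulin receptor substrate that FOXO induces, was at 1.06, 3.62 and 5.37 CPM in WT and at 9.09 and 11.6 CPM in WT+R (log2 fold change 1.93 ± 0.37, adjusted p = 0.0129, and 0.178 without the block). *Ccng2*, a cyclin that slows the cycle, rose (0.63), while *Pik3r1*, the regulatory subunit of PI3K (-0.62), and *Bcl2l11*, the pro-apoptotic BIM, fell. *Bcl2l11* was at 88.9, 35.4 and 60.9 CPM in WT and at 46.4 and 18.4 CPM in WT+R (-1.05 ± 0.17, adjusted p = 0.00592), lower within both same-numbered pairs although the groups overlapped, and without the block its adjusted p was 0.673. Of the other death genes, *Bbc3* (PUMA, 0.64) and *Birc2* (0.60) rose, and *Bax* (-0.25, adjusted p = 0.253) and *Tnfrsf10b* (-0.12, adjusted p = 0.539) did not pass the test. Without WT+R replicate 1, of the 10 called mTOR, mTORC2 and insulin genes named here other than *Bcl2l11*, 1 was called (*Prr5*), with adjusted p of 0.0638 to 0.335 for the others. The counts were 6, 6 and 7 without WT replicates 1, 2 and 3, 5 without WT+R replicate 2 and 2 without the block. *Bcl2l11*, *Bbc3* and *Birc2* had adjusted p of 0.117 to 0.219 without WT+R replicate 1.

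Nutrient and lipid genes fell in part. Of 38 ATF4 targets 0 rose and 3 fell, against 2.18% and 2.39% of all genes. Their median log2 fold change was -0.48, with 29 of the 38 negative. *Slc7a5*, the LAT1 transporter for leucine (chr8:122607884-122634433), fell from 96.2, 112.4 and 103.6 CPM to 28.9 and 31.7 CPM (log2 fold change -1.84 ± 0.41, adjusted p = 0.0241). *Stc2*, stanniocalcin 2 (-2.13, adjusted p = 0.00803), and *Vldlr*, the VLDL receptor (-2.03, adjusted p = 0.00824), fell with it. Of 25 amino acid transporters 0 rose and 2 fell, *Slc7a5* again and *Slc7a7* (-0.62). Of 28 serine, one-carbon and asparagine synthesis genes 1 rose, *Glul* (glutamine synthetase, 0.86), and *Psat1*, of serine synthesis, was at 12.9, 28.2 and 19.1 CPM in WT and at 4.30 and 9.28 CPM in WT+R (-1.71 ± 0.67, adjusted p = 0.174). *Asns*, asparagine synthetase, was at 32.2, 46.3 and 37.8 CPM in WT and at 37.5 and 41.0 CPM in WT+R (-0.18 ± 0.52, adjusted p = 0.887).

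Of 27 cholesterol synthesis and uptake genes 2 fell and 0 rose, against 2.39% and 2.18% of all genes (median -0.23, 23 negative). *Dhcr7*, the last reductase of the route, fell from 29.7, 24.7 and 32.2 CPM to 12.8 and 14.9 CPM (-1.03 ± 0.14, adjusted p = 0.00242), and *Idi1* fell too (-0.98, adjusted p = 0.0412). In the fatty acid list of 21, the desaturase gene *Scd2* fell from 128.7, 181.5 and 167.2 CPM to 25.8 and 78.9 CPM (-1.79 ± 0.36, adjusted p = 0.0145, and 0.14 without the block), *Elovl6* fell (-1.32) and *Acsl3* rose (1.16). *Pkm*, pyruvate kinase, was the 1 called gene of 20 in glycolysis (-1.02, adjusted p = 0.0179). Among 29 pentose phosphate and nucleotide genes *Ctps1*, CTP synthase, rose (0.94) and *Nme1* (-0.80) and *Dhodh*, of pyrimidine synthesis (-0.67), fell. Of the 14 called nutrient, lipid, glycolysis and nucleotide genes, 6 were called without the block and 0 without WT+R replicate 1 (adjusted p 0.0633 to 0.483). They numbered 7, 7 and 10 without WT replicates 1, 2 and 3 and 4 without WT+R replicate 2. *Pkm*, *Acsl3*, *Nme1* and *Slc7a7* share 40.6%, 19.3%, 13.7% and 10.4% of their exonic bases with another gene.

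Calls among translation genes differed by list, with 3.53% of cytosolic ribosomal protein genes and 11.9% of translation factors called, against 4.56% of all genes. Of 85 cytosolic ribosomal protein genes 3 passed the test (among them *Rpl17*, 0.60, and *Rpl37*, 0.64), while 75 had a positive log2 fold change, 39 were higher at an unadjusted p under 0.05 (against 9.99% of all genes that were higher and 10.4% that were lower at that p), and the median was 0.32. The 3 calls among ribosomal proteins became 0 when the block was dropped or when WT replicate 1 or 3 or either WT+R library was left out, and 5 without WT replicate 2. Of 42 translation factors 4 rose and 1 fell, against 2.18% and 2.39% of all genes. *Eef2*, the elongation factor that mTOR signalling keeps active, was at 2377.8, 2218.8 and 2319.9 CPM in WT and at 4269.3 and 3721.2 CPM in WT+R (log2 fold change 0.78 ± 0.1, adjusted p = 0.00226). *Eef1a1* rose from 3018.2, 3604.1 and 2233.4 CPM to 6012.0 and 6244.5 CPM (0.96 ± 0.16, adjusted p = 0.00578). *Eif3f* rose as well (0.73), *Eif4b* was the fourth, and *Eif2b2*, of the eIF2 exchange factor, fell (-0.82). The mitochondrial ribosome differed in sign, with 65 of 78 genes negative, a median of -0.18 and 1 called, *Mrps18a* (-0.60). Ribosomal protein genes and *Eef1a1* have many near-identical pseudogenes, so their counts are uncertain, and *Eif3f* and *Mrps18a* share 10.0% and 27.9% of their exonic bases with another gene. Without the block 2 of the 7 genes named here other than *Eif4b* were called (*Eef1a1* and *Eef2*), and 2 without WT+R replicate 1 (adjusted p 0.0664 to 0.465 for the others), 4 without WT+R replicate 2 and 4 without each of WT replicates 1, 2 and 3.

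Few autophagy and lysosome genes, which the TFEB factors control, passed the test. At an unadjusted p under 0.05, 16 of 43 autophagy genes were higher and 4 lower, and 13 of 46 lysosomal genes were higher and 4 lower, against 9.99% of all genes higher and 10.4% lower. Of 43 autophagy genes 2 rose and 0 fell (median 0.19, 32 positive), the receptor gene *Calcoco1* from 106.4, 73.6 and 94.3 CPM to 176.9 and 128.5 CPM (0.76, adjusted p = 0.00384) and *Map1lc3a* from 72.8, 64.4 and 50.1 CPM to 97.7 and 100.7 CPM (0.60, adjusted p = 0.00693). Of 46 lysosomal genes 1 rose, *Gpnmb* (1.07), and of 19 V-ATPase subunits 1 fell, *Tcirg1* (-0.70). None of these 4 was called without the block (edgeR, with adjusted p of 0.0737, 0.0502, 0.229 and 0.0523 in the order named), and without WT+R replicate 1 only *Map1lc3a* was.

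Proliferation genes were lower without passing the test. Of 49 S phase genes 0 were called by edgeR's quasi-likelihood test, 11 were lower and 0 higher at an unadjusted p under 0.05, 2 were called lower by DESeq2 with the block, and the median log2 fold change was -0.57. Of 50 mitosis and G2/M genes 0 were called, 8 were lower and 0 higher at an unadjusted p under 0.05, DESeq2 with the block called 1 lower, and 49 of the 50 were negative (median -0.85). *Top2a* was at 7.04, 66.8 and 14.7 CPM in WT and at 1.83 and 28.6 CPM in WT+R (-1.14 ± 0.6, adjusted p = 0.321), and *Mki67* at 7.50, 36.4 and 8.24 CPM and at 3.54 and 15.0 CPM (-0.82 ± 0.58, adjusted p = 0.477). The spread between cultures was wider than the change with rapamycin in both, with replicate 2 the highest in either group. *Ccnd2*, cyclin D2, fell from 500.0, 636.2 and 649.1 CPM to 267.9 and 486.9 CPM (-0.70, adjusted p = 0.0209) and *Rb1*, the retinoblastoma gene, rose from 24.3, 31.5 and 32.0 CPM to 46.8 and 46.4 CPM (0.74, adjusted p = 0.00507). Neither was called without the block (adjusted p = 0.303 and 0.0658) or without WT+R replicate 1 (adjusted p = 0.3 and 0.101), and *Ccnd2* shares 15.8% of its exonic bases with another gene.

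Of called genes averaging 1 CPM or more, with separate groups and less than 10% of exonic bases shared, the 12 with the largest rises were taken. *Cyp26b1*, the retinoic acid hydroxylase (chr6:84548396-84570890), was at 2.12, 2.50 and 2.34 CPM in WT and at 52.2 and 13.5 CPM in WT+R (log2 fold change 4.05 ± 0.54, adjusted p = 0.00222). *Nuak2*, a kinase of the AMPK family, was at 7.32, 14.8 and 12.2 CPM in WT and at 87.0 and 46.0 CPM in WT+R (2.58 ± 0.42, adjusted p = 0.00577). *Ptprz1*, a receptor phosphatase (3.27), *Ripor2* (3.69), *Moxd1* (3.69), *Csdc2* (3.22), *Sez6l* (3.11), *Cfi*, complement factor I (2.67), and *Olfml2b* (2.59), besides *Acta2* and *Atoh8*, were also among them.

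The largest falls were taken by the same rule, with its minimum of 1 CPM. *Dlgap3*, a scaffold gene, fell from 28.2, 15.2 and 17.4 CPM to 0.895 and 1.12 CPM (log2 fold change -4.40 ± 0.37, adjusted p = 0.000301). *Fxyd6*, a regulator of the sodium pump, fell from 42.0, 39.5 and 30.1 CPM to 2.15 and 3.22 CPM (-3.97 ± 0.33, adjusted p = 0.000301). *Adora2a*, an adenosine receptor, fell from 21.9, 13.2 and 20.0 CPM to 0.716 and 1.12 CPM (-4.15 ± 0.44, adjusted p = 0.000741). All 3 were also called without the block and without each library in turn. *Dpp4*, a dipeptidyl peptidase of the cell surface, fell from 68.0, 20.4 and 28.6 CPM to 3.18 and 0.602 CPM (-4.35 ± 0.72, adjusted p = 0.00604). *Sprr1a* (-4.02), *Ppef1* (-4.59), *Stc1*, stanniocalcin 1 (-3.87), *Sstr2*, a somatostatin receptor (-3.88), *Dipk2b* (-4.30) and *Meox2*, an endothelial homeobox gene (-3.93), fell too. *Duox2*, a hydrogen peroxide-producing oxidase, had 261 counts over the WT libraries and 4 over the WT+R libraries, which is 40.8-fold lower (exact 95% interval 15.8 to 151.0, counting error only), and *Sntg2* had 155 and 3 counts, 32.3-fold lower (10.9 to 158.5). Of the 9 genes named for their rise other than *Acta2* and *Atoh8*, 5 were called without the block and 5 without WT+R replicate 1 (adjusted p 0.0942 to 0.169 for the others), and 5 and 6 without WT replicates 1 and 2 and 6 without WT+R replicate 2. Of the 12 of largest fall 8 were called without the block, 6 without WT+R replicate 1 (adjusted p 0.0638 to 0.221 for the others) and 8 without WT+R replicate 2.

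Rapamycin was also given to KO cells, in libraries that the comparison in WT cells does not use. It changed 739 of 14838 genes there (4.98%), 288 higher (1.94%) and 451 lower (3.04%). Of the genes called in WT cells 61.3% were called in KO cells, and of those called in KO cells 56.2% were called in WT cells, which is 415 genes, 414 of them in the same direction. The 2 comparisons share no library but share the culture numbers of the block. *Smad7* had a log2 fold change of 2.04 in WT cells and 1.72 in KO cells, *Bmp2* of -3.25 and -3.07, *Thbs1* of 1.14 and 1.18, *Slc7a5* of -1.84 and -1.54, and *Rictor* of 1.01 and 0.95.

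The test of the difference between the genotypes called 0 genes at an adjusted p under 0.05 by edgeR's quasi-likelihood test, with 287 genes at an unadjusted p under 0.05 (1.93%), 87 of them among the 677. DESeq2 called 18 genes with the block and 1 without it. Genes with the smallest p among those with under 10% shared exons included *Lhx6*, a LIM homeobox gene, *Cyp26b1*, *Abca4*, a lipid transporter, and *Cald1*. *Lhx6* was at 15.7, 30.3 and 17.1 CPM in WT and 50.3 and 47.8 CPM in WT+R, but at 16.2, 26.9 and 21.9 CPM in KO and 15.5, 18.9 and 11.7 CPM in KO+R (difference of the log2 fold changes -1.71 ± 0.29, unadjusted p = 9.13e-05, adjusted p = 0.452). *Cyp26b1* stayed between 0.779 and 3.43 CPM in the KO and KO+R libraries (-3.96 ± 0.73, unadjusted p = 0.000174, adjusted p = 0.644). *Abca4* fell in both genotypes, by 2.41 on the log2 scale in WT cells and by 1.06 in KO cells (unadjusted p = 0.000702, adjusted p = 1). *Id3* went the other way, rising by 1.83 in WT cells and by 3.29 in KO cells on the log2 scale, from 37.1, 28.1 and 27.5 CPM in KO to 355.1, 269.3 and 279.0 CPM in KO+R (unadjusted p = 4.48e-05, adjusted p = 0.333). *Vsir* (-1.62 and -0.68), *Diaph2* (1.14 and 0.12), *Gpr161* (0.67 and -0.16), *Maml3* (-1.26 and -0.04), *Hs6st2*, a heparan sulfate sulfotransferase (0.43 and -1.80), and the predicted gene *Gm32687* (0.34 and -0.91) were also among the smallest unadjusted p-values. None of these differences passed the adjustment over all genes.

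**Figure D4:**
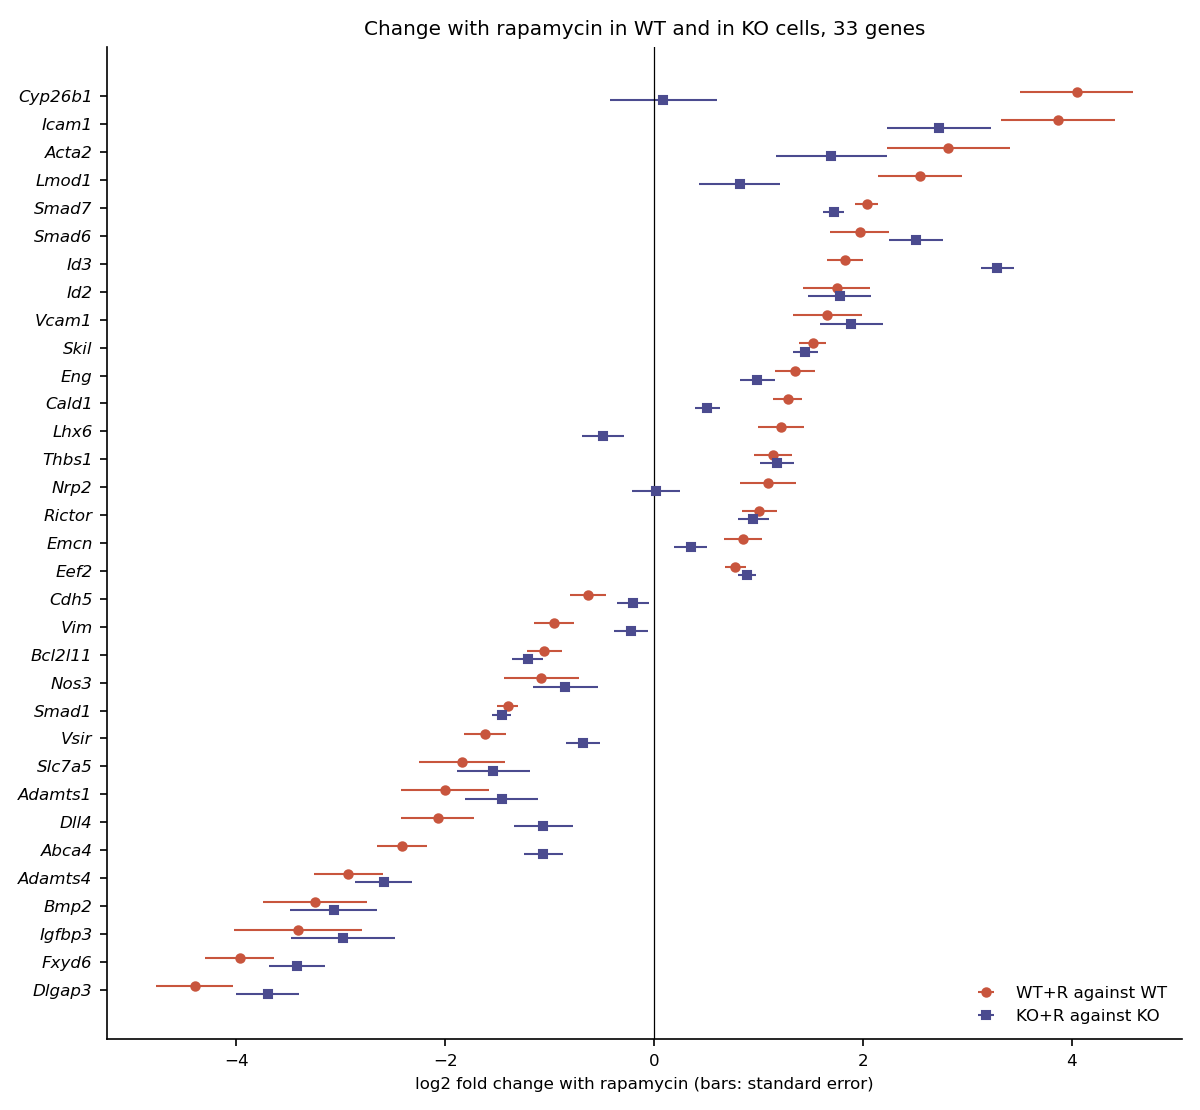
Log2 fold change with rapamycin (x axis, bars are the standard error) of 33 named genes (y axis) in WT cells (red circles, WT+R against WT) and in KO cells (blue squares, KO+R against KO). Most pairs lay within a log2 unit of each other, and *Cyp26b1*, *Lmod1*, *Lhx6*, *Id3*, *Abca4*, *Icam1*, *Acta2*, *Nrp2* and *Dll4* lay further apart, none with an adjusted p under 0.05 for the difference.

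Rapamycin and propranolol were compared directly in WT cells. Between the 2 WT+R and the 2 WT+P libraries 731 genes were called (4.93%), 303 higher (2.04%) and 428 lower (2.88%) with rapamycin, and 194 without the block. This count was 86 without WT+R replicate 1, 408 without WT+R replicate 2, 163 without WT+P replicate 1 and 1766 without WT+P replicate 2. Against the shared WT libraries propranolol changed 12 genes (0.0809%), 11 higher (0.0741%) and 1 lower (0.00674%), with 1993 genes at an unadjusted p under 0.05. That count was 1 without the block, and DESeq2 called 155 genes with the block and 119 without it. The 2 drugs differed in nutrient and sterol genes, where 23 of 38 ATF4 targets and 21 of 27 cholesterol genes were lower with rapamycin than with propranolol and 0 were higher. Over all genes 2.88% were lower and 2.04% higher. Against WT the ATF4 targets had a median log2 fold change of 1.49 with propranolol, with 0 called, and -0.48 with rapamycin. The cholesterol genes had a median of 0.87 with propranolol, with 7 called higher, and -0.23 with rapamycin. The WT+P libraries differed from each other in some of these genes, with *Asns* at 403.6 CPM in replicate 1 and 107.7 CPM in replicate 2. *Slc7a5* was at 486.5 and 171.1 CPM in WT+P and at 28.9 and 31.7 CPM in WT+R (log2 difference -3.38 ± 0.45, adjusted p = 0.00253). *Scd2* was at 606.3 and 699.3 CPM in WT+P and at 25.8 and 78.9 CPM in WT+R (-3.81 ± 0.4, adjusted p = 0.000961). For both genes the WT libraries lay between the 2 treatments. *Icam1* was at 34 and 77.7 CPM in WT+P, within the WT range, and differed from WT+R by 3.92 ± 0.63 on the log2 scale (adjusted p = 0.00606). *Acta2* was at 170.9 and 309.9 CPM in WT+P, and its difference from WT+R (1.36 ± 0.63) had an adjusted p of 0.214. In the list of ID genes and inhibitory SMADs 7 of 17 were higher with rapamycin than with propranolol and 0 lower, against 2.04% and 2.88% of all genes.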

How the data were processed

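RNA-seq of mBMEC was analysed from transcript tables, 1 for each of 16 libraries. The authors made poly(A)-selected, unstranded paired-end libraries and the deposited tables hold Salmon's estimated counts, TPM and effective lengths per transcript. The submitters' processing notes name the GRCm39 build and Salmon 1.5.2. The index annotation is not given in the sources used here, and 99.12% of the 140789 transcripts were matched to GENCODE transcripts. The estimated counts were summed per gene and rounded to whole numbers, and genes were filtered with filterByExpr, which left 14838. The deposited TPM and effective lengths served to choose each gene's main transcript and for an alternative with a length offset.

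Genes were tested with edgeR 4.0.16 (quasi-likelihood test, TMM factors, Benjamini-Hochberg) in 1 model of all 16 libraries with the group and the replicate number as terms (8 residual degrees of freedom). DESeq2 1.42.0 was run as an alternative. The block is part of the comparison as it was set, and the labels do not say what a number marks. Same-numbered libraries deviated together from their group means with r = 0.6 and 0.69 for the 2 pairs of WT and WT+R libraries (0.03 to 0.69 over all 36 such pairs). Replicate 3 has no WT+R library and enters through the shared estimates. The labels call the replicates biological. Levels are CPM with TMM-adjusted library sizes and errors are standard errors of the fit. Depth was 22.21 to 26.2 M counts in the 5 libraries, and intervals on counts cover counting error only. The tests were tested on simulated data.

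The naming rule took the genes the study followed, the 12 largest called rises and falls, the members of 49 gene lists with the 4 smallest p-values or a call, and the 10 smallest interaction p-values. It gave 236 genes, of which 102, none of them called, are left out of the text for length and 4 called genes are not reported here. *Pecam1*, *Cldn5*, *Pdgfrb*, *Top2a*, *Mki67*, *Srf*, *Fkbp1a*, *Mtor*, *Psat1*, *Asns*, *Id4*, *Sele*, *Prr5* and *Prr5l* were chosen after their values were seen. The members and lists were chosen with earlier results of these data known. Promoters are the 300 bases before the start of the most abundant transcript in GRCm39. Alternatives were the fit without the block, another tool, scaling, filter, sample set or threshold test, and the fits without 1 library.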

Additional observations from a re-analysis of the deposited data

Results flagged for a closer look

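*Lhx6* moved in opposite directions with rapamycin in the 2 genotypes. It rose in WT cells by a log2 fold change of 1.22, between 0.66 and 1.68 in the 2 same-numbered pairs, and in KO cells its log2 fold change was -0.49, between -0.90 and -0.06 in the 3 pairs. The interaction of rapamycin with the genotype had an unadjusted p of 9.13e-05 and an adjusted p of 0.452 by edgeR's quasi-likelihood test, so that the difference did not pass the adjustment over all genes.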

How the results depend on the processing

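The block on the replicate number carried much of the count. Without it 207 genes were called in WT+R against WT, 194 in WT+R against WT+P and 39 of the list members, against 677, 731 and 95 with it. Leaving out the library labelled WT replicate 1 as well, an alternative chosen after seeing the data, gave 93, 161 and 14. With glmTreat, which tests against the fold of 1.5, the counts were 125, 151 and 20. With only the compared groups in the fit they were 1392, 31 and 241 with the block and 8, 0 and 3 without it. DESeq2 with the block called 1230 genes between WT+R and WT+P. The other scalings, filter, length offset and DESeq2 fits kept each count within 1.5 times. The interaction with the genotype, with 0 calls, had 18 by DESeq2 with the block, 1 by DESeq2 without it, 1 without the filter on low counts and 3 with only the compared groups and the block. Leaving out 1 library gave 101 to 648 genes for WT+R against WT, 86 to 1766 for WT+R against WT+P and 14 to 96 list members. Where this left 1 WT+R library, the lone sample was assumed to vary like the other groups.

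Of the 130 called genes named, 0 turned direction under any alternative, 57 were called without the block and 27 in all 5 fits that left out 1 library. Of the 23 named genes that were not called, 8 turned direction. *Pdcd10* ranged from -0.09 to 0.94 on the log2 scale when 1 library was left out, *Klf2* from -1.0 to 0.45, *Klf4* from -0.41 to 0.39, *Id4* from -2.08 to 0.03, *Mtor* from -0.03 to 0.29 and *Asns* from -0.52 to 0.04. Without the block and WT replicate 1, *Klf2* was at 0.14, *Sele* at -0.27 and *Hs6st2* at -0.28. *Asns* was at 0.02 in both fits without the block, in DESeq2 without it and in the compared groups with it, where *Klf4* was at -0.35. The causes were not tested.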

Other observations

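Stress and immediate early genes added a few calls. Of 21 immediate early genes 2 rose in WT+R and 0 fell (median log2 fold change 0.13). *Junb*, an AP-1 subunit, was at 108.2, 137.4 and 109.8 CPM in WT and at 287.8 and 252.4 CPM in WT+R (1.10, edgeR adjusted p = 0.00921, and 0.0183 without the block). *Ier3*, an early response gene tied to survival, was at 178.7, 94.3 and 145.3 CPM in WT and at 463.7 and 197.6 CPM in WT+R (1.15, adjusted p = 0.00119, and 0.201 without the block). *Hspb1*, the small heat shock protein HSP27, rose from 764.0, 1072.3 and 601.0 CPM to 1822.5 and 1946.9 CPM (1.17, adjusted p = 0.0105) and was the 1 called gene of 20 heat shock genes. Without WT+R replicate 1 the adjusted p was 0.116 for *Junb* and 0.1 for *Hspb1*. *Junb* and *Ier3* share 13.4% and 34.8% of their exonic bases with another gene.

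Of the markers of other cell types, *Cd68* and *Nefm* fell. *Cd68*, a macrophage and lysosome marker, was at 4.83, 12.0 and 8.08 CPM in WT and at 1.16 and 4.90 CPM in WT+R (log2 fold change -1.39, adjusted p = 0.0389, and 0.378 without the block). The 12 microglia and macrophage markers summed to between 5.71 and 14.6 CPM in WT and to 2.15 and 6.75 CPM in WT+R. *Nefm*, a neurofilament, was at 17.4, 3.03 and 5.66 CPM in WT and at 1.03 and 0.773 CPM in WT+R (-3.04, adjusted p = 0.0173, and 0.116 without the block), and shares 38.2% of its exonic bases with another gene. In the same list *Stmn2* was at 20.3, 57.8 and 10.0 CPM in WT and at 32.0 and 89.5 CPM in WT+R (log2 fold change 1.06, adjusted p = 0.292), and the 10 neuron markers summed to between 21.2 and 73.2 CPM in WT and to 37.5 and 96.1 CPM in WT+R.

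Several pathways gave no call by edgeR's quasi-likelihood test. Of 72 nuclear-encoded oxidative phosphorylation genes 0 were called, 1 was higher and 10 were lower at an unadjusted p under 0.05, DESeq2 with the block called 0 and the median log2 fold change was -0.13. Of 32 interferon and antigen presentation genes 0 were called, 1 was higher and 4 were lower at that p, DESeq2 called 1 lower and the median was -0.18. Of 49 ribosome biogenesis genes 0 were called, 1 was higher and 2 were lower, DESeq2 called 0 and the median was -0.09.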
